A study of Mus musculus and Homo sapiens with 8 samples.

Results

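The chaperones and folding enzymes of the endoplasmic reticulum (ER), with the transcription factor XBP1, were followed in HepG2 cells treated with arsenite. The set was a fixed list of 10 Ensembl gene identifiers, given with their symbols, out of 60675 rows in the deposited count table. All 10 had counts in each HepG2 library and passed the filter on low counts. Listed by role, they are the luminal HSP70 HSPA5, the luminal HSP90 HSP90B1, the HSP40 co-chaperone DNAJB9, the lectin chaperones CALR and CANX, the disulfide isomerases P4HB, PDIA3 and PDIA4, the transcription factor XBP1, and HERPUD1 of ER-associated degradation.

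HepG2 is an established human liver carcinoma line. RNA was sequenced from 2 libraries of HepG2 cells given arsenite, the trivalent oxyanion of arsenic that binds protein thiols, for 24 h, and from 2 libraries of HepG2 cells given water for 24 h. All 4 were at 25 population doublings, and the labels print 5 nM beside arsenite and also beside water. The series also holds 4 libraries of NIH3T3 mouse fibroblasts, which are not analysed here because the human identifiers in the table do not belong to the mouse values. Whether the libraries of a group are separate cultures is not stated, and the p-values thus measure only the spread between these libraries, which may be technical. The main test took this spread from the trend across genes of like abundance, not from each gene's own replicates.

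Proteins that enter the secretory pathway fold in the ER. There HSPA5 and HSP90B1 bind unfolded chains, CALR and CANX hold newly glycosylated chains by their sugars, and the isomerases make and rearrange disulfide bonds through pairs of cysteine thiols. When unfolded proteins accumulate, the sensors IRE1, PERK and ATF6 start the unfolded protein response. IRE1 splices XBP1 mRNA into the form that encodes an active transcription factor, and XBP1 and ATF6 raise the transcription of many ER chaperone genes. In the liver this system handles the large output of plasma proteins.

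The HepG2 libraries were close in depth, at 27192636 and 27361110 counts with arsenite and 26965049 and 27481613 counts with water. At an adjusted p of 0.05 (edgeR, quasi-likelihood test), 4397 of 14389 genes tested were called (30.6%), 1693 higher (11.8%) and 2704 lower (18.8%) with arsenite. The split was 1132 higher and 3318 lower with scaling to library totals alone, and 2497 higher and 2568 lower once a correction for gene length in each library was applied. Besides, 28 genes without names here had at most 3 counts over both water libraries and at least 10 in each arsenite library. Together these 28 held 1446 and 1194 counts with arsenite, against 10 and 7 counts with water, and their part in the results was not tested. Liver and fibroblast marker lists could not be matched to the identifiers, so the identity of the cells was not checked here.

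The ER chaperone genes did not move as a group. CALR and P4HB rose with arsenite, CANX and DNAJB9 fell, and the other 6 did not pass the test. The 4 genes called out of 10 compare with 30.6% of all genes tested, a share close to that background. The 2 called higher compare with 11.8% of all genes and the 2 called lower with 18.8%. The median log2 fold change was -0.07 over the 10 genes and -0.02 over all genes tested.

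**Figure D1:**
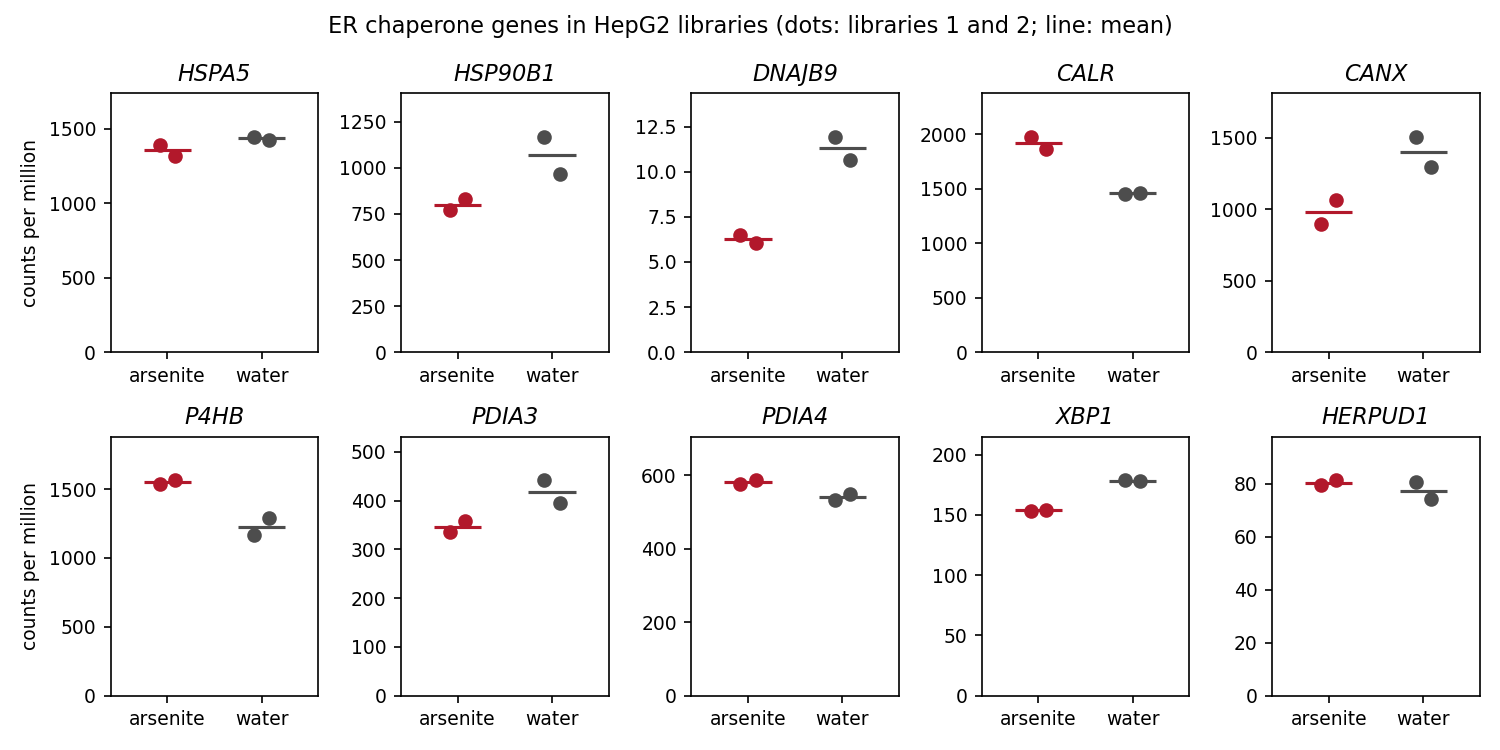
CPM (counts per 1000000 counts of the same library) of the 10 genes in HepG2 cells, with a linear axis from 0 for each gene, dots for libraries 1 and 2 of each group and a line for the mean. CALR and P4HB lie higher in both arsenite libraries, CANX and DNAJB9 lower, and for HERPUD1 alone the groups overlap.

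HSPA5 (ENSG00000044574), also known as BiP or GRP78, is the main HSP70 of the ER lumen and a common readout of the unfolded protein response. Its counts were 37852 and 36124 with arsenite and 39043 and 39215 with water. In CPM, counts per 1000000 counts of the same library, these were 1392 and 1320 with arsenite, against 1448 and 1427 with water. Both arsenite libraries thus lay slightly below both water libraries on this scale. The TMM scaling of the test, which balances the bulk of genes, raised arsenite values relative to water values by 5.93%. The TMM-scaled values of the groups overlapped, at 1446 and 1349 CPM with arsenite and 1426 and 1371 CPM with water. The fitted fold was 0.999, with a 95% interval of 0.817 to 1.22 (adjusted p = 0.998, edgeR, Benjamini-Hochberg). This interval leaves room for a moderate change either way, and the direction of HSPA5 changed with the scaling and with the library left out, from -0.08 to 0.11 on the log2 scale.

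HSP90B1 (ENSG00000166598), also known as GRP94, is the HSP90 of the ER lumen and folds a narrower set of clients, among them integrins and Toll-like receptors. It had 770 and 829 CPM with arsenite, against 1170 and 965 CPM with water. The groups did not overlap, and the water libraries lay further apart (19.1% of their mean) than the arsenite libraries (7.36%). The log2 fold change was -0.34 (SE 0.15), and HSP90B1 did not pass the threshold (adjusted p = 0.0754, edgeR, Benjamini-Hochberg). It passed with scaling to library totals alone, at a log2 fold change of -0.42 (adjusted p = 0.0203, edgeR), and without water library 2, at -0.48 (adjusted p = 0.0479, edgeR). Without water library 1 the value was -0.17 (adjusted p = 0.649, edgeR).

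DNAJB9 (ENSG00000128590), also known as ERdj4, is an HSP40 that stimulates the HSP70 of the ER, takes part in degrading misfolded proteins and is known as a target gene of spliced XBP1. It was the scarcest of the 10, with 177 and 166 counts in the arsenite libraries and 322 and 292 counts in the water libraries. The 95% Poisson intervals of these counts, which cover counting error only, were 151.9 to 205.1 and 141.7 to 193.3 with arsenite, against 287.8 to 359.2 and 259.5 to 327.5 with water. None of the arsenite intervals reached a water interval. DNAJB9 averaged 6.29 ± 0.31 CPM with arsenite and 11.3 ± 0.93 CPM with water (SD, n = 2 each). It fell with arsenite. The log2 fold change was -0.76 (SE 0.21, adjusted p = 0.00228, edgeR, Benjamini-Hochberg), or 1.69-fold lower. Of all genes tested, 86.5% had a smaller fitted change in size. The call was lost without arsenite library 1 (log2 fold change -0.80, adjusted p = 0.0786, edgeR) and without arsenite library 2 (-0.64, adjusted p = 0.0997, edgeR).

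The lectin chaperones moved in opposite directions. CALR (ENSG00000179218), the soluble calcium-binding lectin calreticulin, had 1978 and 1868 CPM with arsenite, against 1449 and 1465 CPM with water. Both arsenite libraries lay above both water libraries, and the water libraries differed from each other by 1.09% of their mean. CALR rose with arsenite by a log2 fold change of 0.48 (SE 0.15, adjusted p = 0.00641, edgeR, Benjamini-Hochberg), a fold of 1.40 with a 95% interval of 1.14 to 1.71. The call was lost without arsenite library 1 (adjusted p = 0.0625), without water library 1 (0.0965) and without water library 2 (0.0501), while the log2 fold change stayed between 0.45 and 0.60 in edgeR's leave-one-out fits.

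CANX (ENSG00000127022), the membrane-bound lectin calnexin, had 897 and 1065 CPM with arsenite, against 1507 and 1294 CPM with water. The groups did not overlap, and the replicates of both groups differed by more than for most of the other genes, by 17.1% of the mean with arsenite and 15.2% with water. CANX fell by 0.43 on the log2 scale (SE 0.15, adjusted p = 0.0173, edgeR, Benjamini-Hochberg), or 1.35-fold lower with a 95% interval of 1.10 to 1.65. The call was lost without arsenite library 1 (log2 fold change -0.30) and without water library 1 (-0.30). It was kept without arsenite library 2 (-0.49) and without water library 2 (-0.55), so it depended on library 1 of each group. CANX has the longest gene model of the 10, at 6235 bp of exons, and CALR the shortest, at 2714 bp. With the correction for gene length, the log2 fold change was -0.35 for CANX (adjusted p = 0.0413, edgeR) and 0.43 for CALR (adjusted p = 0.00946, edgeR), so the opposite directions and both calls were kept.

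Among the disulfide isomerases P4HB rose, and PDIA3 and PDIA4 did not pass the test. P4HB (ENSG00000185624), the founding protein disulfide isomerase and the beta subunit of prolyl 4-hydroxylase, had 1534 and 1565 CPM with arsenite, against 1168 and 1288 CPM with water. All arsenite values lay above all water values. The log2 fold change was 0.42 (SE 0.15, adjusted p = 0.0208, edgeR, Benjamini-Hochberg), a fold of 1.34 with a 95% interval of 1.09 to 1.64. Of the 4 calls this was the least stable, being kept in 8 of 14 alternatives. It was lost with scaling to library totals alone (log2 fold change 0.34, adjusted p = 0.0637, edgeR) and without arsenite library 1 (adjusted p = 0.0803), water library 1 (0.249) or water library 2 (0.0527).

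PDIA3 (ENSG00000167004), also known as ERp57, is the isomerase that works on glycoproteins bound to CALR and CANX. Its CPM were 335 and 357 with arsenite, against 442 and 395 with water. The arsenite libraries were lower without overlap, at a log2 fold change of -0.19 (SE 0.16), which did not pass the threshold (adjusted p = 0.366, edgeR, Benjamini-Hochberg). PDIA4 (ENSG00000155660), also known as ERp72, is an isomerase found in complexes with HSPA5. It had 576 and 586 CPM with arsenite, against 532 and 550 CPM with water. The arsenite libraries were higher without overlap, at a log2 fold change of 0.19 (SE 0.15, adjusted p = 0.371, edgeR, Benjamini-Hochberg). For neither gene did any of the 14 alternatives give a call. PDIA3 and HSP90B1 have processed pseudogenes, and the counting of reads shared with such copies is not stated in the sources used here.

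XBP1 (ENSG00000100219) had 4173 and 4215 counts with arsenite and 4824 and 4897 counts with water. Scaled to library size, these were 153 and 154 CPM with arsenite, against 179 and 178 CPM with water. Replicates differed by only 0.384% of the mean with arsenite and 0.396% with water, while the means of the groups differed by 13.9%, lower with arsenite. The log2 fold change was -0.13 (SE 0.16) and did not pass the threshold (adjusted p = 0.572, edgeR, Benjamini-Hochberg). The SE exceeds what the replicates of XBP1 show, because edgeR took each gene's spread wholly from the trend across genes of like abundance. Counts per gene add the unspliced and spliced forms of XBP1, so splicing by IRE1 cannot be read from them.

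HERPUD1 (ENSG00000051108), a membrane protein that helps assemble the complex for ER-associated degradation, is induced by the unfolded protein response. It had 79.5 and 81.4 CPM with arsenite, against 80.5 and 74.1 CPM with water. The groups overlapped, as water library 1 lay between the arsenite libraries. With TMM scaling they were apart, at 82.6 and 83.1 CPM with arsenite and 79.3 and 71.2 CPM with water, and the log2 fold change was 0.14 (SE 0.17, adjusted p = 0.573, edgeR, Benjamini-Hochberg). Its 95% interval, from -0.20 to 0.47 on the log2 scale, admits a small fall and a moderate increase.

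**Figure D2:**
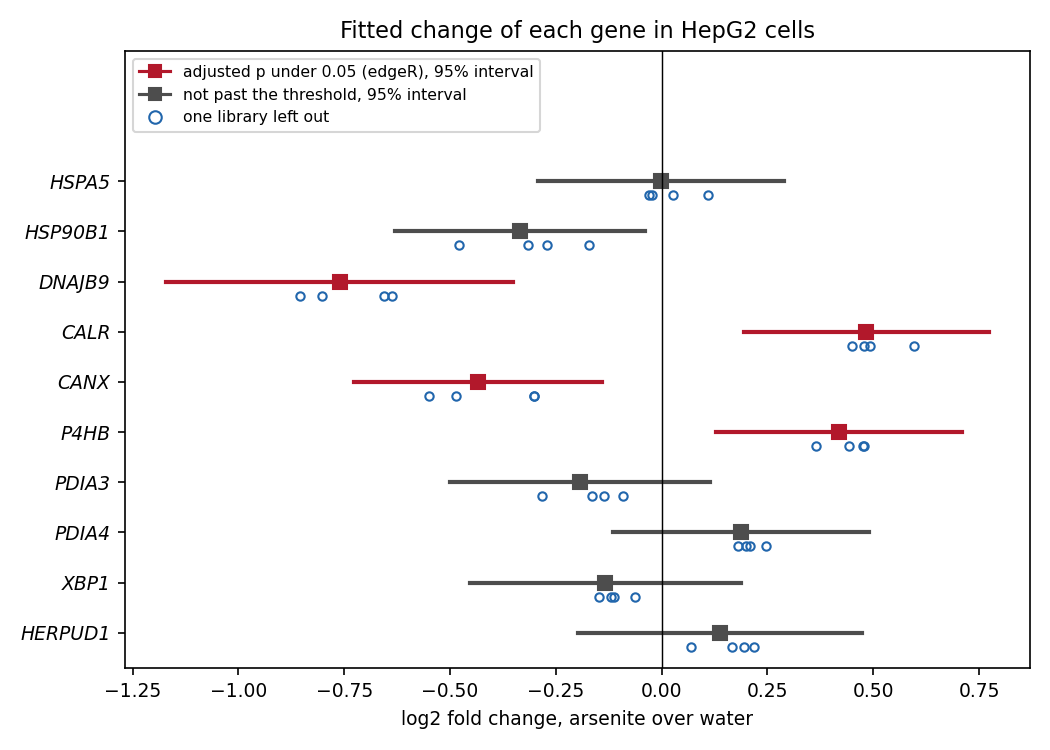
Fitted log2 fold change of the 10 genes, arsenite over water (squares), with 95% intervals (bars) and the values with 1 library left out (open circles). The intervals of CALR and P4HB lie above 0 and those of CANX, DNAJB9 and HSP90B1 below it. HSPA5 sits at 0, and only its circles fall on both sides.

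At an unadjusted p under 0.05 edgeR counted 5 of the 10 genes, the 4 called and HSP90B1, against 5886 of all 14389 genes tested. DESeq2 called the same 4 genes as edgeR. Of the 14 alternatives, all kept the sign of 9 genes, HSPA5 being the exception. In bulk RNA, less RNA per cell and fewer cells with the RNA cannot be told apart.

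Scaled to gene length and own library total, as RPKM computed here, the genes spanned more than 2 orders of magnitude. CALR was the most abundant, at 709 ± 28.7 RPKM with arsenite and 537 ± 4.13 RPKM with water (SD, n = 2 each). HSPA5 followed at 347 ± 13.0 RPKM with arsenite and 368 ± 3.79 RPKM with water, and then P4HB at 292 ± 4.18 RPKM with arsenite and 232 ± 16.0 RPKM with water. These 3 levels were separate from their neighbours in the arsenite libraries.

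With water, P4HB, HSP90B1 and CANX could not be ordered, since their libraries overlapped at means of 232, 228 and 225 RPKM. With arsenite, PDIA4, HSP90B1 and CANX overlapped at means of 177, 171 and 157 RPKM, so that HSP90B1 and CANX stood apart from P4HB there. PDIA4, at 165 RPKM with water, stood below HSP90B1 and CANX in that group. Below them came PDIA3, at 81.6 RPKM with arsenite and 98.6 RPKM with water, and XBP1, at 50.8 RPKM with arsenite and 59.0 RPKM with water. HERPUD1 had 15.6 RPKM with arsenite and 15.0 RPKM with water, and DNAJB9 had 2.22 RPKM with arsenite and 3.98 RPKM with water. The share of all counts that the 10 genes took together did not separate the groups, at 0.772% and 0.783% with arsenite and 0.799% and 0.765% with water.

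Ratios within a library do not depend on the scaling between libraries, and they show how the balance among partners differed. They were not corrected for the trend with gene length in each library. The pairs were chosen after the values were seen, so the ratios carry no test. The ratio of CALR to CANX in RPKM was 5.06 and 4.03 with arsenite, against 2.21 and 2.60 with water. Its mean was 1.89 times as large with arsenite. With the correction for gene length, the log2 fold change of CALR was 0.43 in place of 0.48, and that of CANX -0.35 in place of -0.43. For P4HB over PDIA3 the ratio was 3.66 and 3.50 with arsenite, against 2.11 and 2.61 with water. The ratio of HSPA5 to HSP90B1 was 2.17 and 1.91 with arsenite, against 1.49 and 1.77 with water. HSPA5 stood at 155 and 158 times the level of its co-chaperone DNAJB9 with arsenite, against 88.0 and 97.5 times with water.

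The ratio of PDIA4 to PDIA3 was 2.23 and 2.12 with arsenite, against 1.56 and 1.80 with water, and PDIA4 over HSPA5 was 0.494 and 0.529 with arsenite, against 0.438 and 0.459 with water. For HERPUD1 over XBP1 the ratio was 0.304 and 0.310 with arsenite, against 0.265 and 0.244 with water. CALR over HSPA5 stood at 2.05 and 2.04 with arsenite and at 1.44 and 1.48 with water. In none of the 8 ratios computed did the groups overlap. Where the upper gene lay wholly higher and the lower gene wholly lower in CPM, the ratios could not overlap. This was so for CALR over CANX, P4HB over PDIA3, PDIA4 over PDIA3, CALR over HSPA5 and PDIA4 over HSPA5. Their separation repeats that of the single genes. The share of other gene pairs without overlap was not computed. Among single genes tested, 66.7% had no overlap in CPM, which does not give the share for ratios.

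The CPM values of 9 of the 10 genes did not overlap between the groups, 3 higher and 6 lower with arsenite. For all genes tested this share was 66.7%, with 25.5% higher and 41.2% lower, and with TMM scaling it was again 9 of the 10 genes against 66.8%. In plain CPM, water library 2 lay nearer to the arsenite libraries than water library 1 did in all 9 genes without overlap. With TMM scaling this held for 7 of the 9 genes then apart, CALR and HERPUD1 being the exceptions. In plain CPM the same order held for 52.4% of all genes tested, which is 78.6% of the 9596 without overlap. With TMM scaling this share was not computed over all genes. Between the water libraries HSP90B1 differed by 19.1% of its mean, CANX by 15.2%, DNAJB9 by 11.7%, PDIA3 by 11.3%, P4HB by 9.80% and HERPUD1 by 8.31%. The difference was smaller for PDIA4, at 3.33%, HSPA5, at 1.46%, CALR, at 1.09%, and XBP1, at 0.396%.

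The authors' deposited RPKM gave other ratios for these genes. Their values divide each count by a divisor that changes by row through 14 values in turn, 8 of them equal to a column total and 6 to none, so that only 2 of the 40 values of these genes were divided by their own library's total. The divisor ranged from 0.682 to 1.23 times that total. For XBP1 the authors deposited RPKM of 45.0 and 74.6 with arsenite and 50.3 and 49.4 with water, a ratio of means of 1.20, whereas the counts over own totals gave 0.861. The deposited RPKM of HSPA5 were 354 and 340 with arsenite and 506 and 439 with water, a ratio of 0.735 in place of 0.943. For PDIA4 the deposited ratio was 0.838 in place of 1.07, and for HERPUD1 0.928 in place of 1.04. Thus 3 of the 10 genes, XBP1, PDIA4 and HERPUD1, changed sides, and the decrease of DNAJB9 was larger in the deposited RPKM, at a ratio of 0.432 in place of 0.557.

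**Figure D3:**
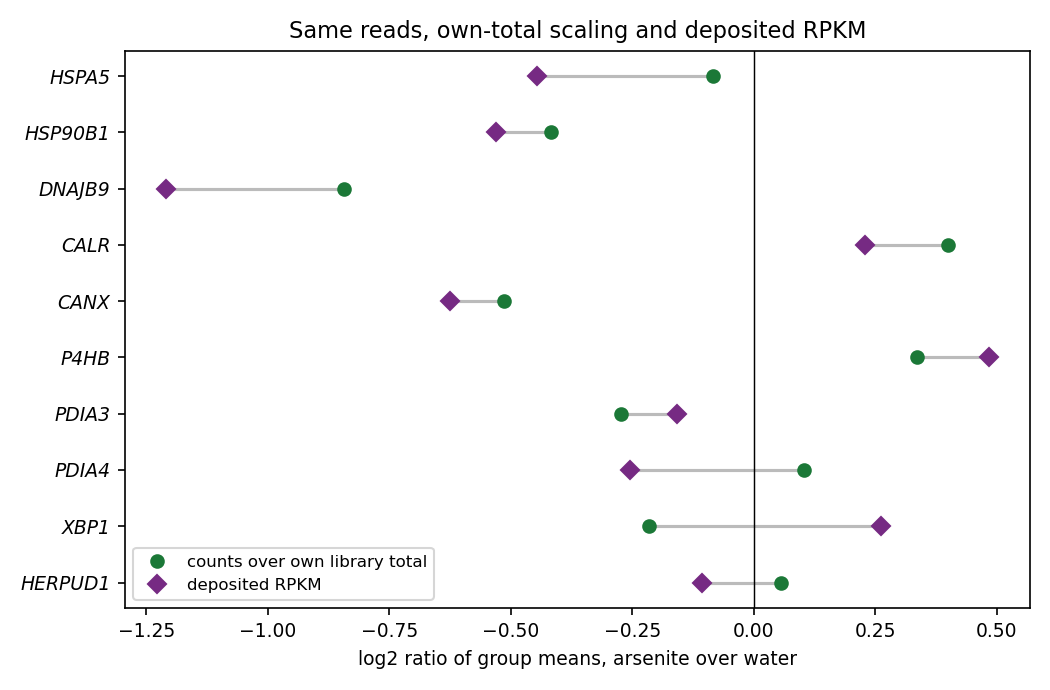
Log2 ratio of group means, arsenite over water, for the 10 genes from counts over own library totals (circles) and from the deposited RPKM (diamonds). The values of XBP1, PDIA4 and HERPUD1 lie on opposite sides of 0, and for HSPA5 the deposited RPKM give a ratio of 0.735 where the counts give 0.943.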

How the data were processed

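Total RNA of 8 samples was sequenced from TruSeq libraries, per the labels' protocols. Tools and build in the submitters' processing notes are featureCounts 1.4.6-p4, STAR 2.4.1d, bcl2fastq 1.8.4 and GRCh38, without roles. The authors deposited whole-number counts per gene, which were used as they stand, and RPKM. Deposited RPKM served to recover gene lengths and to describe the 10 genes: with 14 divisors, 8 of them equal to a column total within 0.01%, all 43288 HepG2 values above 1 were rebuilt within 1%. Lengths and divisors were derived from these same RPKM, so part of this match was fixed in advance. RPKM with own totals was then computed from counts and these lengths of merged gene models.

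The HepG2 libraries were compared in edgeR 4.0.16 (R 4.3.3) with filterByExpr, TMM scaling, the 2-sided quasi-likelihood test and Benjamini-Hochberg adjustment over all 14389 genes tested. The SE is the log2 fold change over the square root of F, and 95% intervals use the test's degrees of freedom. The fit was tested on simulated counts. Alternatives used DESeq2 1.42.0, limma 3.58.1, other scaling and filters, a length correction (loess, span 0.5), an adjusted p of 0.01 and each library left out, where the single remaining sample is taken to vary as the other group does. Tables and plots used Python 3.11.15, pandas 2.3.3, numpy 2.4.6, scipy 1.17.1 and matplotlib 3.10.9.

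Members and lists were chosen with earlier results of these data known. The rule for genes to name took all 10 members and the leading genes of 9 pathway lists. The name tables hold mouse genes and matched 0 of the human identifiers, so the pathway lists and 4 marker lists, and ATF4 and DDIT3, were not analysed here.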

Additional observations from a re-analysis of the deposited data

How the results depend on the processing

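The limma fit without an abundance trend was chosen after seeing the data, because edgeR and limma-voom gave a gene's own replicates no weight, and it put a prior of 9.02 degrees of freedom beside the 2 of each gene. Under it DNAJB9 kept its call (adjusted p = 0.0244, limma), while CALR (0.0892), P4HB (0.128) and CANX (0.140) lost theirs. This left 1 of the 10 genes called, 0 higher and 1 lower, against 2558 of all 14389 genes, 647 of them higher. At an unadjusted p under 0.05 in limma there were 3 of the 10 (DNAJB9, CALR and P4HB), against 5274 of all 14389 genes. At an adjusted p of 0.01, 2 of the 10 were called, 1 higher (CALR) and 1 lower (DNAJB9), and 2652 of all genes, 853 higher and 1799 lower. Library totals alone left 1 of the 10 higher and added HSP90B1 to the lower ones.

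Leaving out 1 library gave 0 to 3 of the 10 genes called, 0 to 2 higher and 0 to 3 lower, and 844 to 4503 of all genes, 209 to 1697 higher and 635 to 2806 lower, where fewer samples entered. These fits tested 14846 to 15001 genes, as the filter then passed more genes than the 14389 of the main fit. The lowest count of genes called came without arsenite library 1 in edgeR and the next lowest without water library 1. Without arsenite library 1 the log2 fold changes were 0.45 for CALR, 0.44 for P4HB, -0.30 for CANX and -0.80 for DNAJB9. Without water library 1 they were 0.49 for CALR, 0.37 for P4HB, -0.30 for CANX and -0.66 for DNAJB9. The other scaling, filter, DESeq2, limma-voom and length settings each called 4 of the 10 genes, against a background that moved. Of all 14389 genes, 4360 were called with DESeq2 size factors and 4481 with upper quartile factors. DESeq2 called 3786 of them, limma-voom 4508 and the length correction 5065. Without the filter 3774 of 27146 genes were called, and at a mean CPM of at least 5, 3751 of 9887. No paired analysis was possible because the labels give no replicate numbers.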
